A study of Homo sapiens with 6 samples.

Results

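The keratin genes KRT7, KRT8, KRT18 and KRT19 and the epithelial carcinoma markers EPCAM, CDH1 and CPS1 were examined after lipopolysaccharide (LPS). The cells were labelled EA.hy926, an endothelial hybrid line. These 7 genes were taken by name from a table of 19755 protein-coding genes, with earlier results of the same libraries known, and all 7 were present. Of these, 5 reached the mean of 0.5 FPKM over the 6 libraries that was required for a test. FPKM is the number of sequenced fragments scaled to transcript length and to the mapped fragments of the library, so levels of different genes can be set side by side. EPCAM and CDH1 lay under that minimum and are described by their values alone.

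Keratins are the intermediate filament proteins of epithelial cells, and each filament pairs a type II with a type I protein. KRT7 and KRT8 are type II keratins of simple epithelia, and KRT18 and KRT19 are their type I partners. EPCAM is an epithelial cell adhesion molecule, CDH1 encodes E-cadherin, the calcium-dependent adhesion protein of epithelial junctions, and CPS1 is the mitochondrial enzyme that makes carbamoyl phosphate for the urea cycle. Simple keratins are common markers of carcinomas, and CPS1 is known from liver, intestine and some lung adenocarcinomas. EA.hy926 is an established line made by fusing a human umbilical vein endothelial cell (HUVEC) with A549, a lung adenocarcinoma line that carries simple keratins.

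RNA was sequenced in 3 libraries of cells given LPS, the glycolipid of the Gram-negative outer membrane, at 1000 ng/ml for 12 h, and in 3 control libraries of the same line. The labels give the LPS cells as LPS-induced and the controls as WT, both at 12 h, and do not say whether the controls received a vehicle. Groups come from the sample titles, since the treatment field reads "Sepsis" in every sample. The titles name both EA.hy926 and HUVEC, and no library of unfused HUVEC or of A549 was analysed here, so which parent an RNA came from cannot be told apart. The identity of the cells is taken from these titles and was not tested.

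Summed FPKM of protein-coding genes lay between 256047 and 264878 per library, and 11078 to 11179 genes reached 1 FPKM. Read depth is unknown, because FPKM keeps no counts, so no counting interval or detection limit is given. All 20 endothelial markers examined passed the filter on low values, and 14 of them reached 10 FPKM. Their summed level was 713.8 to 861.0 FPKM in LPS libraries and 586.7 to 745.8 FPKM in control libraries. All 15 fibroblast and mesenchymal markers reached 10 FPKM, with FN1 the highest. Their summed level was 12595 to 13560 FPKM in LPS libraries and 13150 to 14396 FPKM in control libraries. Of 12 leukocyte markers only CD68 was tested, and PTPRC, which defines leukocytes, was listed at 0 in every library. In limma 0 genes of these 3 lists passed. At an unadjusted p under 0.05, 5 endothelial markers were higher and 2 lower, and 1 mesenchymal marker was higher and 2 lower. Over all tested genes, 5.13% were higher and 5.26% lower at that level. The median log2 difference was 0.21 for endothelial and -0.03 for mesenchymal markers. Without Control 3 the endothelial median was 0.10, and without LPS 2 it was 0.13. Nothing in the labels says that the libraries of a group came from different cultures. The p-values therefore reflect only how far these libraries differ, which may be technical.

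KRT18 was the most abundant of the 7 genes, followed by KRT19, KRT7 and KRT8, then CPS1, with EPCAM and CDH1 near or at 0. By its mean over the 6 libraries, KRT18 exceeded 96.0% of protein-coding genes, KRT19 92.6%, KRT7 89.2% and KRT8 87.8%. CPS1 exceeded 61.6%. KRT18 exceeded KRT19 in every library. KRT7 and KRT8 were neighbours in the order whose values overlapped over the 6 libraries. In LPS libraries KRT7 and KRT19 also overlapped, whereas in control libraries KRT19 was higher than KRT7 in every library. This order uses gene levels, and most of the KRT8 level was assigned to transcripts at the KRT18 locus, as described below. With only coding transcripts summed, KRT8 had 5.75 to 6.83 FPKM in LPS libraries and 5.25 to 7.08 FPKM in control libraries. KRT7 then had 11.7 to 19.9 FPKM and 10.9 to 14.9 FPKM, so KRT7 and KRT8 did not overlap.

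**Figure D1:**
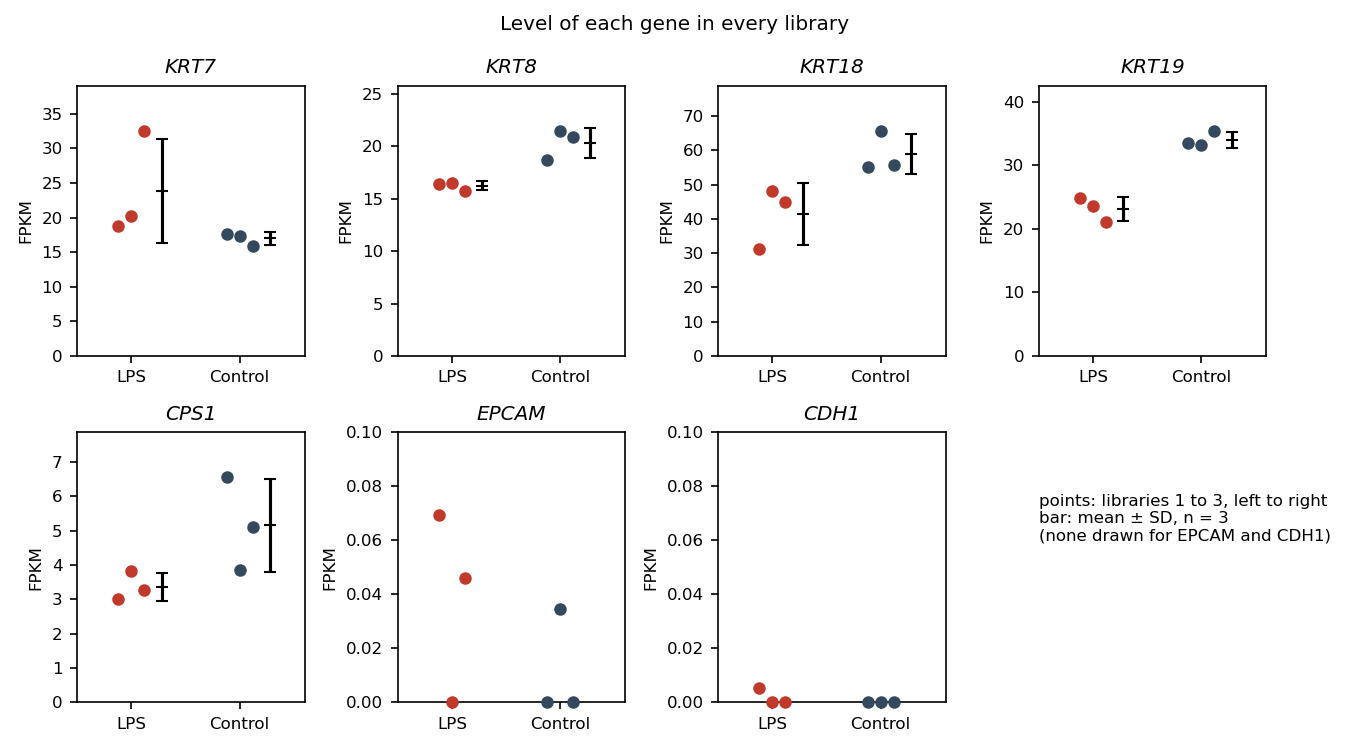
FPKM of each of the 7 genes (vertical axes, linear, from 0) in the LPS and control libraries, with points for single libraries and bars for mean ± SD (n = 3). KRT8, KRT18, KRT19 and CPS1 are lower in every LPS library than in every control library, KRT7 is higher in every LPS library, and EPCAM and CDH1 stay under 0.1 FPKM.

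None of the 5 tested genes passed the threshold, an adjusted p under 0.05 with limma over 12068 protein-coding genes. Across all these genes 7 passed, which is 0.058%, and 0.0166% passed with a lower level. At an unadjusted p under 0.05, 4 of the 5 (KRT8, KRT18, KRT19 and CPS1) were lower with LPS and 0 were higher, against 5.26% of all tested genes lower and 5.13% higher. The same 4 genes were lower in every LPS library than in every control library, which held for 8.73% of all tested genes. KRT7 was higher in every LPS library, which held for 8.68%. The median log2 difference of the 5 genes was -0.53, and that of all tested genes was -0.01. These genes were picked with earlier results of the same libraries known, so their counts are a description.

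**Figure D2:**
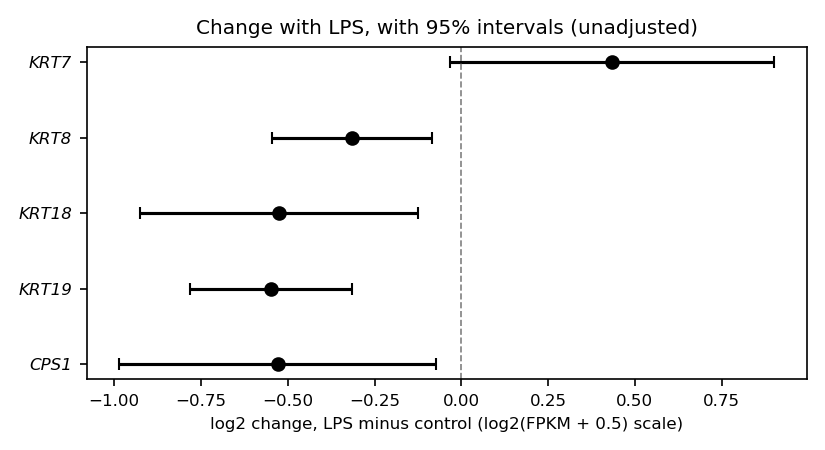
Log2 difference between LPS and control libraries (horizontal axis, on the log2(FPKM + 0.5) scale) of the 5 tested genes, with points for limma estimates and lines for unadjusted 95% intervals. The estimates of KRT8, KRT18, KRT19 and CPS1 lie between -0.32 and -0.55, and that of KRT7 is 0.44 with an interval that includes 0.

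Among the type I keratins, KRT19, the smallest keratin and a marker of simple and ductal epithelia, had 24.8, 23.5 and 21.0 FPKM in LPS libraries, against 33.4, 33.1 and 35.4 FPKM in control libraries. The groups did not overlap, and the values within each group lay close together. The mean was 23.1 ± 1.93 FPKM with LPS and 34.0 ± 1.23 FPKM in controls (SD, n = 3 each), a ratio of 0.681. The log2 difference was -0.55 (SE 0.10, 95% interval -0.78 to -0.31), with a limma p of 0.000724 and an adjusted p of 0.173. KRT19 lies on chromosome 17 (chr17:41523617-41528308 in GRCh38). Of the 5 genes it had the smallest p, and it remained short of the threshold.

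Nearly all of the KRT19 level came from 1 protein-coding transcript, KRT19-201, with 95.7% of the gene level in LPS libraries and 98.0% in control libraries. KRT19-201 averaged 22.1 ± 1.68 FPKM with LPS and 33.3 ± 1.37 FPKM in controls (SD, n = 3 each), without overlap. Its log2 difference was -0.58 (SE 0.10), with a limma p of 0.00144 and an adjusted p of 0.290 over 20563 coding transcripts. Of the 11 coding transcripts of the 7 genes that were tested, 0 passed in limma, against 0.126% of all coding transcripts, and KRT19-201 was the only one with an unadjusted p under 0.05, a level that 3.2% of all coding transcripts reached in the lower direction. It and KRT8-217 were the 2 of the 11 that were lower in every LPS library, against 7.07% of all coding transcripts. The 5 annotated KRT19 pseudogenes, processed copies that could share its reads, summed to a mean of 0.00583 FPKM in LPS libraries and were listed at 0 in control libraries.

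KRT18, the usual type I partner of KRT8, had 31.1, 48.1 and 44.9 FPKM in LPS libraries, against 55.3, 65.7 and 55.8 FPKM in control libraries. LPS 1 was the lowest of the 6 libraries, and no LPS value reached the control values. The mean was 41.4 ± 9.04 FPKM with LPS and 58.9 ± 5.88 FPKM in controls (SD, n = 3 each), a ratio of 0.702. The log2 difference was -0.53 (SE 0.17, 95% interval -0.93 to -0.12), with a limma p of 0.0169 and an adjusted p of 0.360. Without LPS 1 the log2 difference was -0.33.

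Single KRT18 transcripts varied far more than the gene. KRT18-201 had 15.4, 45.3 and 25.4 FPKM in LPS libraries and 5.62, 60.6 and 33.5 FPKM in control libraries. KRT18-202 had 6.499, 0 and 2.77 FPKM in LPS libraries and 38.6, 0.0130 and 7.74 FPKM in control libraries. Control 1, the library lowest in KRT18-201, was the highest in KRT18-202, so the assignment between these isoforms differed within a group by more than the groups differed. When only coding transcripts were summed, KRT18 had 24.9 to 45.3 FPKM in LPS libraries and 44.7 to 60.6 FPKM in control libraries, which overlapped. The 67 annotated KRT18 pseudogenes together had 4.35 ± 1.06 FPKM with LPS and 3.96 ± 0.442 FPKM in controls (SD, n = 3 each).

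Among the type II keratins, KRT8, the partner of KRT18 in the first filaments of simple epithelia, had 16.4, 16.5 and 15.7 FPKM in LPS libraries, against 18.7, 21.5 and 20.8 FPKM in control libraries. Every LPS value lay below every control value. The mean was 16.2 ± 0.429 FPKM with LPS and 20.3 ± 1.45 FPKM in controls (SD, n = 3 each), a ratio of 0.797. The log2 difference was -0.32 (SE 0.10, 95% interval -0.55 to -0.08), with a limma p of 0.0139 and an adjusted p of 0.351. The 50 annotated KRT8 pseudogenes together averaged 2.72 FPKM with LPS and 2.74 FPKM in controls.

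Most of the KRT8 level was assigned to transcripts outside the KRT8 body. KRT8 (chr12:52897187-52952897, minus strand) and KRT18 (chr12:52948871-52952906, plus strand) overlap on opposite strands of chromosome 12 in the deposited annotation. Of 18 KRT8 transcripts, 5 lie wholly within or beside the KRT18 locus, and they made up 64.5% of the KRT8 level in LPS libraries and 63.7% in control libraries. Their sum was 10.3, 10.1 and 10.97 FPKM in LPS libraries, against 12.7, 11.4 and 14.8 FPKM in control libraries, again without overlap. No source used here says whether the counting used strand. Where exons overlap, reads of KRT18 and of these KRT8 transcripts therefore cannot be told apart. KRT18 exons hold 83.4% of the exonic bases of KRT8-207, 47.1% of KRT8-214, 26.5% of KRT8-212 and 5.42% of KRT8-217. For the other, an assembled transcript, that share is unknown.

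The most abundant of these transcripts, KRT8-207, had 4.20, 4.40 and 5.38 FPKM in LPS libraries and 6.48, 4.43 and 5.06 FPKM in control libraries. Of its exonic bases, 83.4% lie in KRT18 exons. Its exons cover 302 of the 1290 coding bases of KRT18-202, or 23.4%.

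The remaining KRT8 transcripts reach or lie in the KRT8 body. The 4 that start at KRT18 and extend to the KRT8 body summed to 5.12, 5.25 and 4.37 FPKM in LPS libraries and 5.44, 3.61 and 5.06 FPKM in control libraries. The 9 in the KRT8 body alone summed to 1.01, 1.16 and 0.379 FPKM in LPS libraries and 0.573, 6.44 and 0.987 FPKM in control libraries. Control 2 stood apart there through a single transcript, KRT8-213, with 5.38 FPKM in that library and 0 in the other 5. With KRT8-213 left out, a comparison added after the values were seen, KRT8 had 16.4, 16.5 and 15.7 FPKM in LPS libraries and 18.7, 16.1 and 20.8 FPKM in control libraries, so that the groups overlapped. KRT8-201, which lies in the KRT8 body, did not exceed 0.671 FPKM in any library. When only the 9 coding KRT8 transcripts were summed, the means were 6.37 ± 0.559 FPKM with LPS and 6.45 ± 1.04 FPKM in controls (SD, n = 3 each).

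RefSeq places the KRT8 start at position 52926469 of chromosome 12, the start of KRT8-215, which was listed at 0 in every library. The 250 bases before it (chr12:52926470-52926719, minus strand, GRCh38.p14) are printed because the transcript from this annotated start had no measured level. Capitals mark the only match, on either strand, to GGGA followed by 4 bases of any kind and CC. That is a loose form of the motif of NF-kB, an inflammatory factor that LPS signalling is known to activate. It occurs in 22.6% of 35116 RefSeq windows of this length, so its presence is common and does not show a binding site. TGANTCA, the AP-1 motif, and TATAAA, the TATA box, had no match here, and occur in 6.57% and 10.7% of windows.
KRT8 promoter: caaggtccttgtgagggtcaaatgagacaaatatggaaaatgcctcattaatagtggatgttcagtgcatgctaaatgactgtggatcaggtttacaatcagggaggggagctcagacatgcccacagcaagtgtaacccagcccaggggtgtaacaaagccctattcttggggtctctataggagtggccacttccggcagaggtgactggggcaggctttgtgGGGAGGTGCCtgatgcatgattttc

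**Figure D3:**
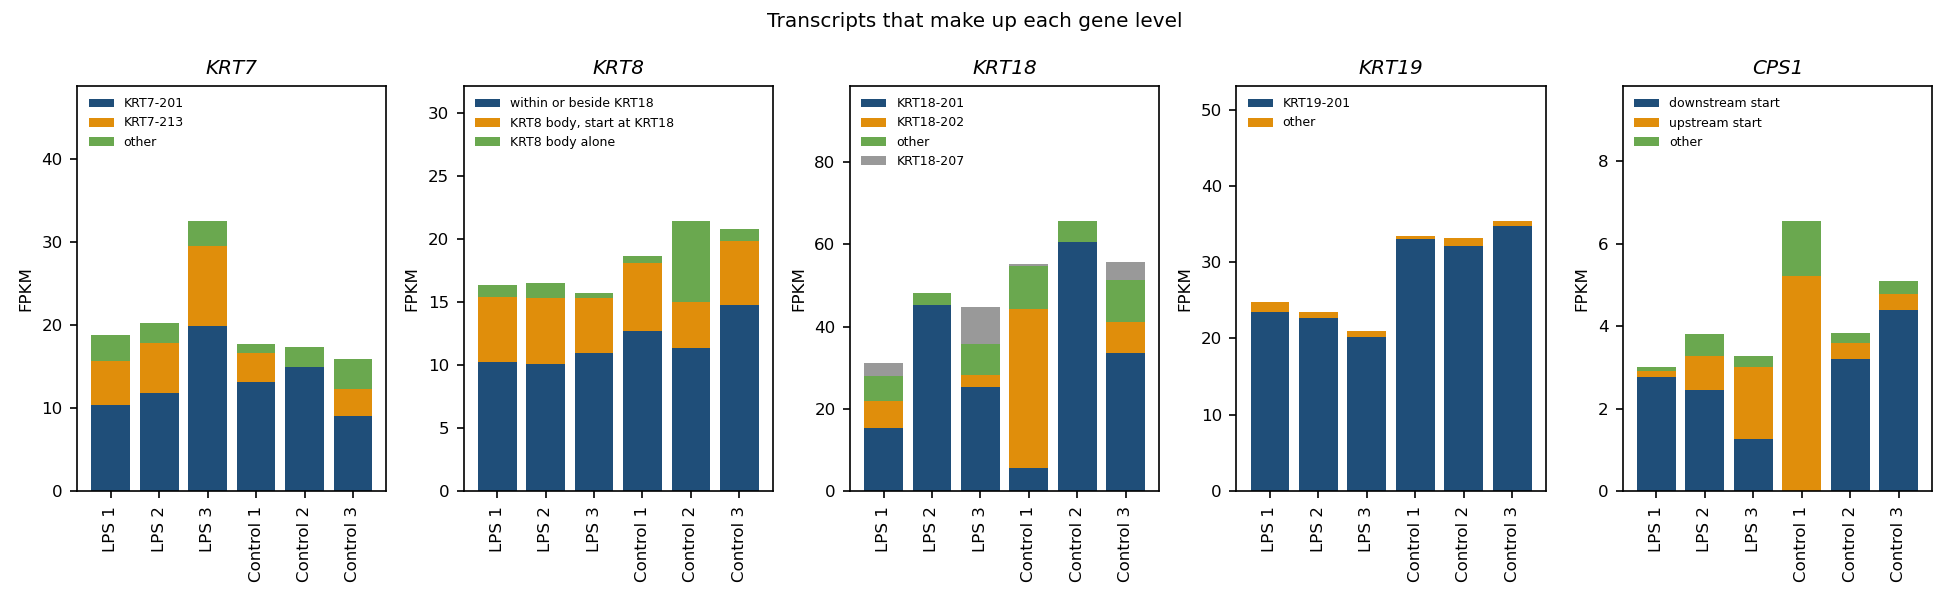
FPKM of each tested gene (vertical axes, from 0) in every library, stacked by transcript or transcript class. KRT19 is almost entirely KRT19-201, 5 transcripts at the KRT18 locus make up 63.7% to 64.5% of the mean KRT8 level, and Control 1 differs from the other libraries in the makeup of KRT18 and CPS1.

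KRT7, a type II keratin of simple and ductal epithelia such as lung, had 18.8, 20.2 and 32.5 FPKM in LPS libraries, against 17.7, 17.4 and 15.9 FPKM in control libraries. LPS 3 stood well above the others, while LPS 1 exceeded the highest control only slightly. The mean was 23.8 ± 7.54 FPKM with LPS and 17.0 ± 0.935 FPKM in controls (SD, n = 3 each). The log2 difference was 0.44 (SE 0.20, 95% interval -0.03 to 0.90), with a limma p of 0.0635 and an adjusted p of 0.503. Without LPS 3 it was 0.19. KRT7 lies on chromosome 12 (chr12:52232520-52252186 in GRCh38).

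Neither of the 2 coding KRT7 transcripts separated the groups. KRT7-201 had 10.3, 11.8 and 19.9 FPKM in LPS libraries and 13.2, 14.9 and 8.999 FPKM in control libraries. KRT7-214 had 1.35, 1.09 and 7.3e-05 FPKM in LPS libraries and 4e-06, 9e-06 and 1.87 FPKM in control libraries. KRT7-213, a short transcript annotated as non-coding (chr12:52232520-52233148), had 5.31, 6.05 and 9.66 FPKM in LPS libraries and 3.47, 0 and 3.33 FPKM in control libraries. It made up 29.4% of the KRT7 level with LPS and 13.3% in controls, and it was higher in every LPS library. The overlapping antisense gene KRT7-AS had 1.72, 2.44 and 3.18 FPKM in LPS libraries and 1.45, 2.08 and 1.65 FPKM in control libraries. Where their exons overlap, reads of the gene and its antisense partner cannot be told apart without strand.

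Type II keratins stood higher relative to type I keratins in every LPS library, a comparison given without a test. KRT7 plus KRT8 over KRT18 plus KRT19, a ratio of FPKM values, was 0.630, 0.512 and 0.732 in LPS libraries and 0.410, 0.393 and 0.403 in control libraries. Every LPS ratio lay above every control ratio, and the type II sum was below the type I sum in all 6 libraries. KRT34, a type I keratin with 44.1% to 55.2% of summed keratin FPKM per library, is not in this ratio. It therefore does not describe type II and type I keratins as a whole. Most of the KRT8 level in it was assigned to transcripts at the KRT18 locus. With coding transcripts alone the mean ratio was 0.366 ± 0.0764 with LPS and 0.233 ± 0.0236 in controls (SD, n = 3 each). KRT8 over KRT18 was 0.528, 0.343 and 0.350 in LPS libraries and 0.338, 0.327 and 0.374 in control libraries, which overlapped. KRT7 over KRT8 was 1.15, 1.22 and 2.07 in LPS libraries and 0.946, 0.809 and 0.764 in control libraries.

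The most abundant keratin in these cells was none of the 4 simple keratins but KRT34, a type I keratin known from hair. KRT34 had 116.5, 120.0 and 163.9 FPKM in LPS libraries and 113.6, 127.9 and 128.3 FPKM in control libraries, and the groups overlapped. Its mean was 133.4 ± 26.4 FPKM with LPS and 123.3 ± 8.41 FPKM in controls (SD, n = 3 each), with a limma adjusted p of 0.843. Of 55 type I and type II keratin genes, 8 had a mean of at least 0.5 FPKM and 32 were listed at 0 in every library. The 4 simple keratins made up 40.4%, 45.9% and 38.5% of summed keratin FPKM in LPS libraries and 48.6%, 49.0% and 46.7% in control libraries. KRT10, a keratin of suprabasal epidermis, had 14.5, 2.63 and 13.7 FPKM in LPS libraries and 15.1, 12.1 and 13.6 FPKM in control libraries, so LPS 2 alone was low. KRT15, a basal keratin, averaged 2.54 ± 0.679 FPKM with LPS and 1.70 ± 0.494 FPKM in controls (SD, n = 3 each). None of the 4 tested keratins outside the simple ones passed in limma, and 0 had an unadjusted p under 0.05.

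**Figure D4:**
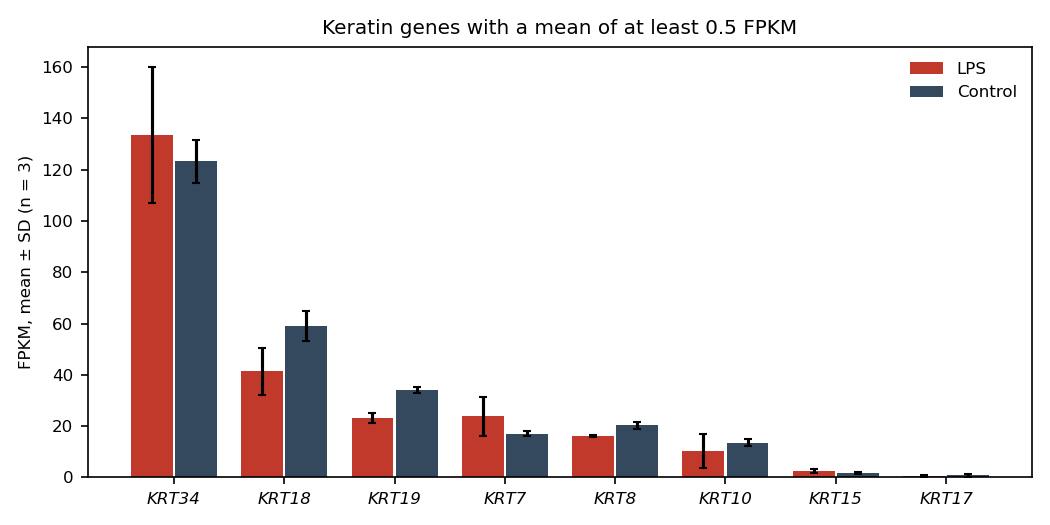
FPKM (vertical axis, linear, from 0) of the 8 type I and type II keratin genes with a mean of at least 0.5 FPKM, with bars for group means and lines for SD (n = 3). KRT34 is the highest in both groups, at 133.4 FPKM with LPS and 123.3 FPKM in controls, followed by KRT18.

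The epithelial surface markers were near 0 in the same libraries. EPCAM (chr2:47345158-47387601) had 0.0693, 0 and 0.0462 FPKM in LPS libraries and 0, 0.0345 and 0 FPKM in control libraries. CDH1 (chr16:68737292-68835541) had 0.00519 FPKM in LPS 1 and was listed at 0 in the other 5 libraries. All 8 genes used by every cell that were looked up were above 0 in every library. That does not show how well rare transcripts were detected. No test or fold change is given for EPCAM and CDH1.

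Of 37 genes of epithelial junctions and polarity, 15 were tested and 22 had a mean under 0.5 FPKM. The catenins CTNNB1, CTNNA1 and CTNND1, which bind any classical cadherin and are not confined to epithelia, were the most abundant. CTNNB1, or beta-catenin, averaged 106.5 ± 13.1 FPKM with LPS and 110.8 ± 19.9 FPKM in controls (SD, n = 3 each). Claudin 7 (CLDN7), an epithelial tight junction protein chosen after values were seen, averaged 4.37 ± 0.817 FPKM with LPS and 5.40 ± 1.04 FPKM in controls (SD, n = 3 each). CLDN3 and RAB25 were listed at 0 in every library. None passed the threshold in limma, and the median log2 difference was 0.08. At an unadjusted p under 0.05, 1 was higher and 1 lower, against 5.13% and 5.26% of all tested genes.

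Among 18 regulators of epithelial transcription and splicing 2 were tested, KLF5 among them, and 8 were listed at 0 in every library. KLF5 averaged 0.803 ± 0.172 FPKM with LPS and 0.973 ± 0.141 FPKM in controls (SD, n = 3 each). GRHL2, a factor of epithelial junction genes, and NKX2-1, the lung lineage factor, were among those listed at 0. Of the 2 tested, 0 passed in limma and 0 had an unadjusted p under 0.05. Of 9 repressors of CDH1, 8 were tested, and 5 of the 9 reached 10 FPKM. The repressor SNAI2 averaged 27.7 ± 2.46 FPKM with LPS and 29.1 ± 0.481 FPKM in controls, TWIST2 averaged 20.1 ± 1.92 and 20.7 ± 1.03 FPKM, and TCF4 averaged 13.4 ± 2.05 and 14.9 ± 1.01 FPKM (SD, n = 3 each). None of the repressors passed in limma, and 1 was higher at an unadjusted p under 0.05, against 5.13% of all tested genes.

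Of 26 markers of lung epithelium and A549 cells, 6 were tested, 20 had a mean under 0.5 FPKM and 10 were listed at 0 in every library. The surfactant genes SFTPC and SFTPA1 and the secretory marker SCGB1A1 were listed at 0 in every library. UCHL1, a ubiquitin hydrolase, had 94.6, 90.4 and 95.4 FPKM in LPS libraries and 115.2, 117.7 and 185.7 FPKM in control libraries. Every LPS value of UCHL1 lay below every control value, which held for 8.73% of all tested genes. GDF15, a stress cytokine, averaged 112.7 ± 19.2 FPKM with LPS and 126.6 ± 30.1 FPKM in controls, and AKR1C3, an aldo-keto reductase, averaged 8.91 ± 0.331 and 10.9 ± 1.76 FPKM (SD, n = 3 each). All 6 tested genes were lower with LPS by the sign of the log2 difference, against 6297 of all 12068 tested genes. The 6 include AKR1C1 and AKR1C2, named after values were seen, which lie close to AKR1C3 on chromosome 10. The 6 may therefore not be separate observations. Of the 6, 3 had an unadjusted p under 0.05, against 5.26% of all tested genes lower at that level. In limma 0 passed, and the median log2 difference was -0.44. The summed level of the list was 215.0 to 246.4 FPKM in LPS libraries and 259.4 to 317.9 FPKM in control libraries. Most of that sum came from GDF15 and UCHL1, so it says little about the other markers of the list. Any relation of these markers to the lower values of KRT8, KRT18, KRT19 and CPS1 was not tested.

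**Figure D5:**
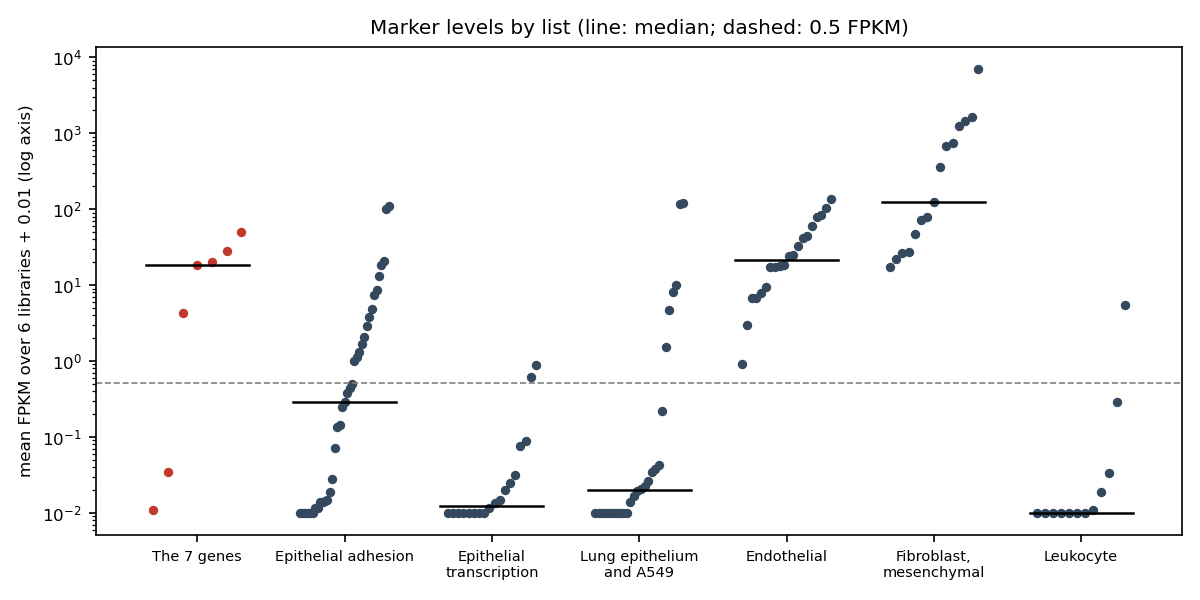
Mean FPKM over the 6 libraries plus 0.01 (vertical axis, log scale) of the 7 genes and of 6 marker lists, with a point per gene and a line at the median. The endothelial and fibroblast lists lie above the dashed 0.5 FPKM line in full, whereas 20 of 26 lung and A549 markers and 16 of 18 epithelial regulators lie below it.

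CPS1, which takes ammonia into the urea cycle, had 3.004, 3.82 and 3.28 FPKM in LPS libraries, against 6.55, 3.84 and 5.10 FPKM in control libraries. LPS 2 and Control 2 were nearly level, 0.0283 FPKM apart, so the groups only just failed to overlap. The mean was 3.37 ± 0.413 FPKM with LPS and 5.16 ± 1.35 FPKM in controls (SD, n = 3 each), a ratio of 0.652. The log2 difference was -0.53 (SE 0.20, 95% interval -0.99 to -0.07), with a limma p of 0.0288 and an adjusted p of 0.422. CPS1 lies on chromosome 2 (chr2:210477682-210679107 in GRCh38).

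Of 13 CPS1 transcripts, 2 begin at a downstream start, 4 at an upstream start and 7 at neither, and the shares of the starts varied within both groups. The upstream start took 4.48%, 21.3% and 53.6% of the CPS1 level in LPS libraries and 79.6%, 9.62% and 7.56% in control libraries. The 7 transcripts at neither start made up 8.97% of the mean level with LPS and 12.3% in controls. Transcripts of the downstream start, at position 210556538 for CPS1-201, summed to 2.77, 2.45 and 1.26 FPKM in LPS libraries and 0, 3.21 and 4.40 FPKM in control libraries. Transcripts of the upstream start summed to 0.134, 0.813 and 1.76 FPKM in LPS libraries and 5.21, 0.370 and 0.385 FPKM in control libraries. Control 1 alone was listed at 0 for the downstream start and was the highest for the upstream one. All coding CPS1 transcripts together had 2.91, 3.27 and 3.03 FPKM in LPS libraries and 5.21, 3.58 and 4.81 FPKM in control libraries, without overlap.

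The RefSeq start at position 210477685 of chromosome 2 matches the outermost of the upstream starts, 210477682, to within 3 bases. CPS1-203, the most abundant of the upstream transcripts, begins at 210477709. The 250 bases before the RefSeq start (chr2:210477435-210477684, plus strand, GRCh38.p14) are printed because both groups held libraries with upstream transcripts. None of the 3 motifs searched in the KRT8 window had a match in it, on either strand, so there are no capitals.
CPS1 promoter: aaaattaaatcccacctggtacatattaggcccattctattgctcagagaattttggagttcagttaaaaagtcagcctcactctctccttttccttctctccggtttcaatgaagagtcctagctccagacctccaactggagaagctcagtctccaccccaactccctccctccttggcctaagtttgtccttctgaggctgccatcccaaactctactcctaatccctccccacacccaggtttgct

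Other enzymes of the urea cycle and of carbamoyl phosphate supply were present at varied levels. Of 12 genes, 10 were tested, with 3 higher and 7 lower means in LPS libraries and a median log2 difference of -0.14. None passed in limma, and 2 had an unadjusted p under 0.05, both lower, against 5.26% of all tested genes. Glutamate dehydrogenase GLUD1, which releases ammonia, averaged 50.3 ± 0.708 FPKM with LPS and 57.5 ± 1.88 FPKM in controls (SD, n = 3 each). CAD, the cytosolic enzyme of pyrimidine synthesis, averaged 16.4 ± 0.360 FPKM with LPS and 16.2 ± 1.597 FPKM in controls (SD, n = 3 each). NAGS, which makes the activator that CPS1 needs, and ASS1, a later urea cycle enzyme, were singled out after values were seen. NAGS had 3.98, 4.15 and 4.39 FPKM in LPS libraries and 4.84, 5.28 and 5.34 FPKM in control libraries. ASS1 had 7.98, 7.91 and 5.98 FPKM in LPS libraries and 8.94, 11.3 and 11.04 FPKM in control libraries, with a limma adjusted p of 0.351. OTC, the mitochondrial step that uses carbamoyl phosphate, had 0.0380 FPKM in LPS 2 and was listed at 0 in the other 5 libraries.

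Of 18 other intermediate filament and linker genes, 11 were tested and 7 had a mean under 0.5 FPKM. VIM, or vimentin, the filament protein of mesenchymal and endothelial cells, had a higher level than any keratin and averaged 1775 ± 63.3 FPKM with LPS and 1890 ± 349 FPKM in controls (SD, n = 3 each). PLEC, a linker of filaments, averaged 86.3 ± 9.35 FPKM with LPS and 81.2 ± 8.18 FPKM in controls, and the nuclear lamin gene LMNA averaged 77.1 ± 11.5 and 71.6 ± 7.30 FPKM (SD, n = 3 each). Of the 11 tested genes, 0 passed in limma. At an unadjusted p under 0.05, 2 were higher, against 5.13% of all tested genes. The median log2 difference was 0.09. Without LPS 3 that median was 0.00768, and without Control 1 it was 0.0454. DSP, or desmoplakin, which ties intermediate filaments to desmosomes, was singled out after values were seen. DSP had 12.2, 8.93 and 14.9 FPKM in LPS libraries and 4.95, 6.09 and 7.93 FPKM in control libraries. Every LPS value of DSP exceeded every control value, which held for 8.68% of all tested genes. The log2 difference was 0.87 (SE 0.22), with a limma adjusted p of 0.277.

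The genes whose profiles over the 6 libraries lay closest to each of the 5 tested genes were found among 6973 genes by the root mean square difference of centred log2 values. ZMAT3 (0.0331) and LTA4H (0.0369) were closest to KRT8, and MAN1A1 (0.0544) and SF3B6 (0.0616) to KRT19. FAM214B (0.0737) and MYBBP1A (0.0851) were closest to KRT7, and DDIT4 (0.0854) and RBM39 (0.0885) to KRT18. FBLN5 (0.0774) and LARS (0.101) were closest to CPS1. These are likenesses over 6 libraries and carry no test.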

How the data were processed

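Total RNA of cells labelled EA.hy926 was sequenced in 3 LPS and 3 control libraries. The authors deposited FPKM tables per gene and per transcript. The tools were HISAT2 and StringTie, per the submitters' processing notes, with no version. The build in those notes is mm9, but the tables hold human Ensembl identifiers with GRCh38 positions. GENCODE 29 contained 95.1% of the 61556 gene identifiers, with identical ends for 72.5% of these. Strand handling and read counts were not given in the sources used here. At most 39.3% of values were whole multiples of the commonest low value (tolerance 0.02), so reads could not be recovered. No pair of libraries shared identical nonzero values.

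Genes and transcripts averaging 0.5 FPKM or more were tested on log2(FPKM + 0.5), a scale that understates changes of low genes, using limma 3.58.1 (R 4.3.3). Group was the only term, with eBayes and a mean trend, two-sided p-values and Benjamini-Hochberg adjustment over all tested features of a table. The procedure was tested on simulated data. Means are given with SD over 3 libraries.

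The 7 genes and all lists were chosen with earlier results of these data known. Named genes are the 7, the 3 most abundant tested genes of each list where none passed, the 2 nearest profiles of each gene, and transcripts with a mean of at least 0.5 FPKM. A pair of genes that the rule names is not reported here. Genes named outside this rule are said to be chosen after values were seen, or are defining markers listed at 0. Alternatives were pseudocounts of 0.1 and 1, other filters, median-of-ratios rescaling, quantile normalization, library weights, the table of all annotated genes, a replicate block and leaving out each library. Promoters come from RefSeq, whose table held 2 of the 7 genes.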

Additional observations from a re-analysis of the deposited data

How the results depend on the processing

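None of the 5 tested genes passed under any of 15 alternatives, and their directions held in all of them. The unadjusted limma p was less stable. For CPS1 it was 0.0534 without a filter, 0.0585 with a replicate block and 0.0999 without Control 1. It was also 0.0647 without Control 3, 0.0845 without LPS 1 and 0.0650 without LPS 3. For KRT18 it was 0.0585 without Control 2. For KRT7 it was 0.0469 with median-of-ratios rescaling and 0.0264 without LPS 1. KRT8 and KRT19 stayed under 0.05 in all 15. Adjusted p-values (limma) ranged from 0.158 to 0.462 for KRT19, 0.328 to 0.630 for KRT8, 0.328 to 0.616 for KRT18, 0.380 to 0.670 for CPS1 and 0.446 to 0.739 for KRT7. With a library left out, log2 differences ranged from 0.19 to 0.58 for KRT7, -0.37 to -0.28 for KRT8, -0.65 to -0.33 for KRT18, -0.60 to -0.48 for KRT19 and -0.71 to -0.36 for CPS1. EPCAM and CDH1 were under the filter and have no alternative differences.

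The count of genes passing in limma, 7, was 0 without a filter (1668 at an unadjusted p under 0.05) and 0 with a replicate block (1451), and 0 to 8 with a library left out, with 0 both without Control 2 and without LPS 2. The count of coding transcripts, 26, was 0 with the block (1171) and 28 to 53 with a library left out. Deviations of genes from their group means correlated at 0.0175, 0.105 and 0.0605 between same-numbered LPS and control libraries. Between differently numbered ones they correlated at -0.0840 to 0.0228. The labels state no pairing and these values are small, so they do not settle whether the libraries were paired. The main fit took no pairing, and the block changed no call among the 5 genes. The cause of these differences was not tested.

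Without a filter, median log2 differences were 0 for epithelial adhesion, -0.0692 for the urea cycle and -0.0112 for lung and A549 markers, as genes at 0 then enter. With a library left out, they ranged from -0.00148 to 0.121 for adhesion, -0.152 to -0.0717 for the urea cycle, -0.136 to -0.0175 for fibroblast markers, 0.105 to 0.272 for endothelial markers and 0.00768 to 0.1001 for other filament genes. The lowest came without Control 3 for adhesion and endothelial markers, without Control 2 for fibroblast markers and without LPS 3 for other filament genes, and the urea cycle median was nearest 0 without Control 3.

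Of the 11 tested transcripts, KRT19-201, KRT8-217 and KRT7-214 kept their direction with each library left out. For the other 8, log2 differences then ranged from -0.77 to 0.76 for CPS1-201, -0.69 to 0.33 for CPS1-203 (0.20 at a pseudocount of 0.1), -0.78 to 0.88 for KRT18-201, -2.99 to 0.13 for KRT18-202, -0.0504 to 2.09 for KRT18-207, -0.13 to 0.33 for KRT7-201, -0.12 to 0.64 for KRT8-216 and -0.33 to 0.0291 for KRT8-210.

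Summed over coding transcripts, mean FPKM was 14.8 with LPS and 12.97 in controls for KRT7, and 6.37 and 6.45 for KRT8. For KRT18 it was 50.4 in controls. The ratio of KRT7 plus KRT8 over KRT18 plus KRT19 was then 0.366 with LPS and 0.233 in controls. By alternatives chosen after seeing the data, KRT8 transcripts reaching its body averaged 5.76 FPKM with LPS and 7.37 in controls, and KRT8 without KRT8-213 averaged 18.5 in controls.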
